A study of Homo sapiens with 36 samples.

Results

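The genes described here are 10 markers of the epithelial and mesenchymal states, chosen by name from the 57820 genes of the count table. All 10 were found by matching Ensembl identifiers to symbols. CDH1 and EPCAM mark epithelial cells, CDH2, VIM and FN1 mark mesenchymal cells, and ZEB1, ZEB2, SNAI1, SNAI2 and TWIST1 encode transcription factors of the epithelial-mesenchymal transition (EMT). RNA-seq read them in A2780, a line of human ovarian cancer, with 36 libraries spread over 12 conditions, 3 to a condition. There were 3 lines: the drug-sensitive parent (wt), its isogenic counterpart made resistant by chronic cisplatin (cis), and cis SSP cells, which grew out of cis cells kept without serine and glycine and have an active serine synthesis pathway. Medium was complete or lacked serine/glycine (-SG), with or without carboplatin (carbo), a platinum drug whose concentration the labels give as 6 M, where other assays of the study used micromolar doses. The labels give no time point, and the methods give only a general default day of assay. Each line is a single line, so the step that made it and any other change it underwent cannot be told apart, and libraries of 1 condition are described in the legends as technical replicates, so p-values cover the spread between these libraries and not that between independent cultures.

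In an epithelial cell, E-cadherin (the product of CDH1) holds neighbouring cells together at adherens junctions, and EPCAM adds a further contact between them. During EMT a cell loses these contacts, gains N-cadherin (CDH2), vimentin filaments (VIM) and fibronectin matrix (FN1), and becomes more motile. Factors of the ZEB, SNAI and TWIST families drive the switch by binding E-boxes, and ZEB and SNAI proteins repress CDH1 through them. Carcinoma cells often hold a mixture of both programmes, and ovarian surface epithelium itself is known for carrying mesenchymal features.

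The measured features are gene counts, and the sequence the ZEB and SNAI factors read is the E-box CACCTG, which is CAGGTG on the other strand. RefSeq starts on build GRCh38.p14 were held for 5 of the 10 members, CDH2, VIM, FN1, ZEB1 and ZEB2. The 250 bases before a start were matched to a single place in GRCh37, the build of the count table, and are shown 5′ to 3′ on the gene's strand for the mesenchymal gene that varied most between conditions (CDH2, with 2 starts), for the most abundant member (VIM) and for a ZEB1 start that holds the motif. Capitals mark CACCTG or CAGGTG.

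CDH2, first start, minus strand, chr18:25757095-25757344: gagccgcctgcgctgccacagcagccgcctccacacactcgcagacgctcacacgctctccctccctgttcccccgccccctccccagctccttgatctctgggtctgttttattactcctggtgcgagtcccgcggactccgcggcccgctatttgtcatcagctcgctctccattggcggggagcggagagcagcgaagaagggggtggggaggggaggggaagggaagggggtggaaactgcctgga
CDH2, second start, minus strand, chr18:25616606-25616855: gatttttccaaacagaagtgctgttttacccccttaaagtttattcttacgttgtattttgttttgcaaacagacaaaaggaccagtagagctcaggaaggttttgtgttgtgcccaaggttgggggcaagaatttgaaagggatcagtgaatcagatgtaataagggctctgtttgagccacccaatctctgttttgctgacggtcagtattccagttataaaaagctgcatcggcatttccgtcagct
VIM, plus strand, chr10:17269990-17270239: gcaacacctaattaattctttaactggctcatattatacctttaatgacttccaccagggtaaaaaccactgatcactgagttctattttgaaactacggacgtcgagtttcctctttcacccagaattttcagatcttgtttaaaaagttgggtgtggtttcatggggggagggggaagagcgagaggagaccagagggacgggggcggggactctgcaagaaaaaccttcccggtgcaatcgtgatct
ZEB1, plus strand, chr10:31607096-31607345: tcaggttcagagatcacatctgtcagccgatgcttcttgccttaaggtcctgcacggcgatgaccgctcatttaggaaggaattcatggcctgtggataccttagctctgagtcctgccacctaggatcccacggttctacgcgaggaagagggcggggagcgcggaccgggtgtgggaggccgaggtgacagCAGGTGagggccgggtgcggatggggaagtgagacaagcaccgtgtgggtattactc

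None of these CDH2 and VIM bases lie in an annotated exon, and all 250 bases before this ZEB1 start lie in exons of the antisense gene ZEB1-AS1. The letters CACCTG on either strand were absent from the windows of CDH2, VIM, FN1 and ZEB2, and were present before 2 of the 7 ZEB1 starts. In the window shown, CAGGTG began 57 bases before the start (position -57). Of all 35116 starts in the table, 17.5% held the motif in the same length. The looser E-box CANNTG, which includes CACCTG, was in 61.8% of all starts, in 1 of the 2 CDH2 windows, in the ZEB2 window and in 4 of the 7 ZEB1 windows. The CDH2 window of the first start held 17 CG pairs and that of the second 4, against a median of 11 over all starts. A match describes letters in a window and was not tested as a binding site.

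Total counts on genes ranged from 13074937 to 20441582 per library (median 17663485). Levels are given as CPM, counts scaled to the library's total after TMM scaling over the 36 libraries, and levels of different genes are compared only as CPM per kb of the canonical transcript. Library 25 (cis SSP replicate 1) and library 32 (cis SSP -SG replicate 2) stood apart from the other libraries of their conditions: genes with transcripts under 2 kb were higher in them, with median log2 ratios of 0.56 in each, and genes over 5 kb were lower, with medians of -0.64 in each. Genes of 2 to 5 kb had medians of -0.001 and 0.004. Among the members, ZEB1, with a transcript of 5.94 kb, read -0.998 and -1.32 in libraries 25 and 32 on that scale. CDH2 (4.02 kb) read -0.59 and -0.56, and VIM (2.15 kb) read 0.63 and 0.55. SNAI2, close to VIM in length (2.18 kb), read only 0.07 and 0.03, and SNAI1 (1.71 kb) read 0.36 and 0.07. Fits of members in cis SSP cells are therefore also given without these libraries where a call or direction changed. The lists of other genes used below were fitted with all libraries only.

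**Figure D1:**
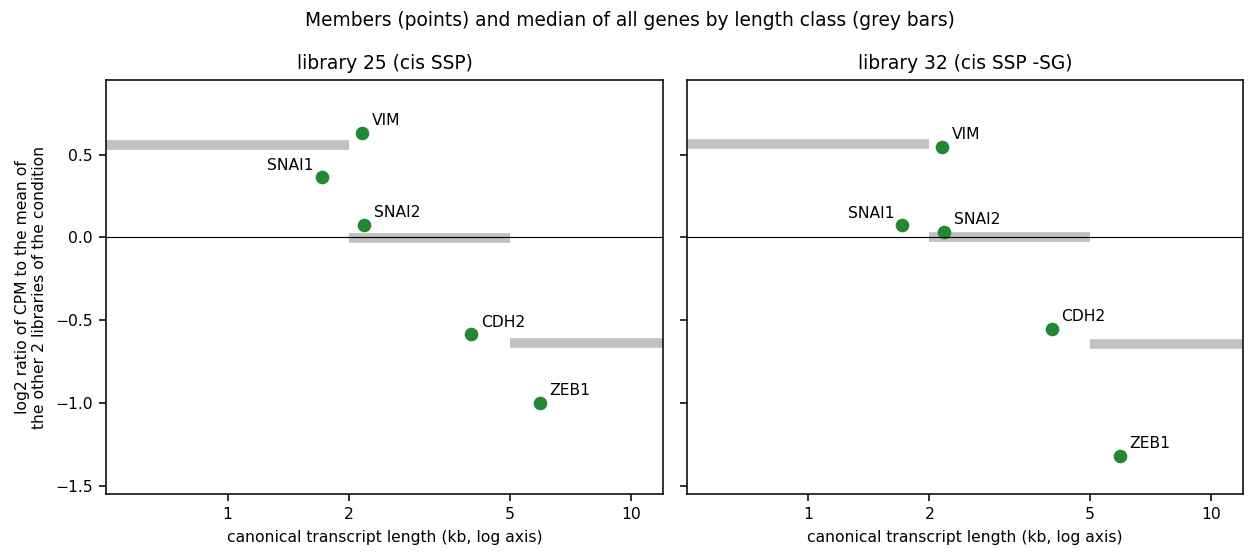
Log2 ratio of CPM in library 25 (left) and library 32 (right) to the mean of the other 2 libraries of the same condition, against canonical transcript length in kb on a log axis. Points are the members with at least 1 CPM and grey bars the median of all genes in 3 length classes. ZEB1, the longest member drawn, lies lowest in both panels, at -0.998 and -1.32, and VIM lies at 0.63 and 0.55.

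The sample type was checked on other markers. PAX8 (at most 10 counts in a library), MUC16 (at most 3) and KRT7 (at most 1), which mark ovarian carcinomas, were at or near 0 in all 36 libraries. Of the other 5 ovarian carcinoma markers, MSLN reached 8 counts, WT1 27, KRT8 112, KRT19 122 and KRT18 830 (44.1 CPM), and the 8 markers summed to 0.842 to 21.6 CPM in wt, 16.5 to 47.8 CPM in cis and 8.32 to 19.2 CPM in cis SSP libraries. The 4 leukocyte markers summed to at most 0.367 CPM and the 2 matched endothelial markers to at most 0.411 CPM in any library. The 4 fibroblast markers, all of which are also in the list of mesenchymal genes used below, summed to 227 to 408 CPM in wt, 36 to 93.1 CPM in cis and 348 to 510 CPM in cis SSP cells, and their part in the results was not tested. In bulk RNA, fewer cells of a type and less RNA per cell cannot be told apart.

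The epithelial markers were almost absent. CDH1 (ENSG00000039068, chromosome 16, 68771195 to 68869440) had 0 to 6 counts in every library, with 11 of 36 libraries at 0 and no more than 0.325 CPM anywhere. It passed the filter on low counts in none of the comparisons, so no fitted fold is given for it, and any ratio below rests on these few counts. EPCAM (ENSG00000119888, chromosome 2, 47572297 to 47614740), a homophilic adhesion molecule of epithelia, had 14 to 18 counts in wt, 2 to 4 in cis and 12 to 22 in cis SSP cells in complete medium. Over all conditions it ranged from 0.0754 to 2.26 CPM, lowest in cis carbo and highest in wt -SG carbo. Its levels were thus low but ordered by line: the lowest wt library held 0.734 CPM, just above the highest cis library with 0.723 CPM, and cis SSP libraries (0.446 to 1.32 CPM) overlapped both.

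The mesenchymal markers did not share a level. VIM (ENSG00000026025, chromosome 10, 17270240 to 17279592), the intermediate filament of mesenchymal cells, was the most abundant member per length in all conditions, with 20127 to 80153 counts and 704 to 2140 CPM per kb. FN1 (ENSG00000115414, chromosome 2, 216225163 to 216300796), the matrix glycoprotein, had only 0 to 51 counts and at most 0.342 CPM per kb. CDH2 (ENSG00000170558, chromosome 18, 25512843 to 25757910), the neural cadherin, lay between them and spanned the widest range of condition means of the 3, its libraries running from 9.65 to 1400 CPM, or 2.40 to 349 CPM per kb.

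**Figure D2:**
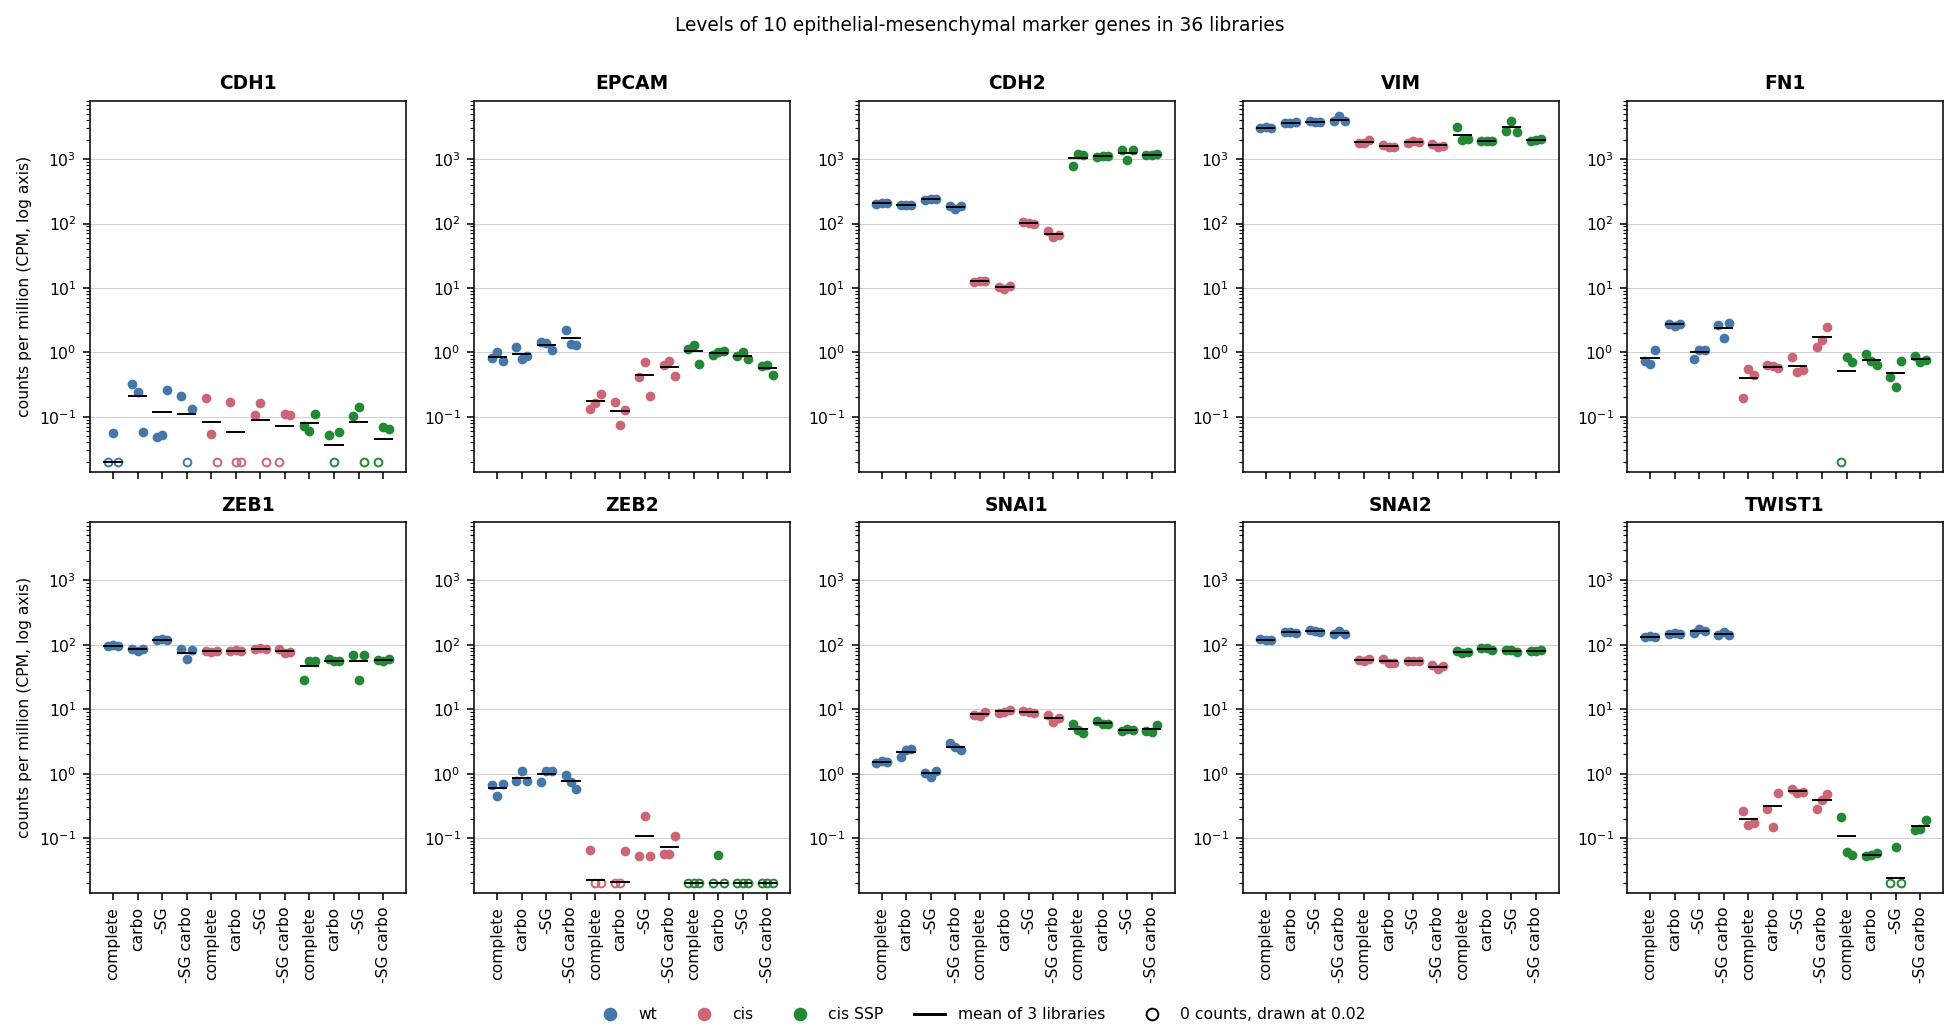
CPM on a log axis for each of the 10 genes in 36 libraries, grouped by line (colours) and condition (x axis). Points are libraries, bars the means of 3 libraries, and open points libraries with 0 counts. CDH2 runs from about 10.2 CPM in cis carbo to 1250 CPM in cis SSP -SG, TWIST1 from 165 CPM in wt -SG to 0.0239 CPM in cis SSP -SG, while VIM stays between 1520 and 4600 CPM.

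CDH2 placed the lines in an order of its own. In wt cells the 3 libraries held 3693, 3799 and 3996 counts, in cis cells 189, 234 and 228, and in cis SSP cells 11069, 19835 and 21415. As CPM these were 208 ± 3.4 (SD, n = 3) in wt, 12.7 ± 0.193 in cis and 1040 ± 227 in cis SSP. No library of 1 line overlapped those of another in any of the 4 media, with cis SSP highest and cis lowest throughout. Along the 12 condition means, neighbours overlapped only among the 4 cis SSP conditions, where cis SSP -SG overlapped cis SSP -SG carbo and cis SSP carbo overlapped cis SSP. The order below them was wt -SG, wt, wt carbo, wt -SG carbo, cis -SG, cis -SG carbo, cis and cis carbo, with no overlap between neighbours.

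The transcription factors each had a pattern. TWIST1 (ENSG00000122691, chromosome 7, 19060614 to 19157259), a basic helix-loop-helix factor, had 2050 to 3299 counts in wt libraries, 2 to 11 in cis and 0 to 3 in cis SSP libraries. ZEB2 (ENSG00000169554, chromosome 2, 145121931 to 145278624) followed it at a far lower level, with 8 to 21 counts in wt, 0 to 4 in cis, and a single count over the 12 cis SSP libraries. SNAI2 (ENSG00000019549, chromosome 8, 49830157 to 49834299), the zinc finger factor also called Slug, was present throughout at 118 to 170 CPM in wt, 41.7 to 61.0 in cis and 73.9 to 90.5 in cis SSP cells, without overlap between the lines. SNAI1 (ENSG00000124216, chromosome 20, 48599517 to 48605423), or Snail, ran the other way, at 0.894 to 2.95 CPM in wt, 6.34 to 9.91 in cis and 4.24 to 6.68 in cis SSP. ZEB1 (ENSG00000148516, chromosome 10, 31607424 to 31818742) varied least of the 5 over condition means, with libraries at 59.9 to 125 CPM in wt, 75.4 to 89.1 in cis and 28.1 to 70.5 in cis SSP libraries, the lowest value being that of library 32.

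Per kb, TWIST1 was the most abundant of the 5 factors in untreated wt cells (82.4 CPM per kb), ahead of SNAI2 (55.1) and ZEB1 (16.4). In untreated cis cells SNAI2 led (26.6), then ZEB1 (13.3) and SNAI1 (4.89), and TWIST1 stood at 0.122. The same 3 genes led in cis SSP cells, with 35.2, 7.96 and 2.92 CPM per kb. TWIST2, the paralog of TWIST1, is no member and had 0 or 1 count in each wt library, against 41 to 77 in cis and 61 to 102 in cis SSP libraries.

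The first comparison asks how resistant cells differ from sensitive ones. In complete medium, CDH2, VIM, FN1, EPCAM, ZEB1, SNAI2 and TWIST1 were lower in cis than in wt cells and SNAI1 was higher. CDH2 was 16.8-fold lower (log2 fold change -4.07, SE 0.0427, adjusted p = 1.91e-49). VIM fell from 3080 ± 51.2 to 1850 ± 103 CPM (log2 -0.77, SE 0.027, adjusted p = 7.97e-23). For TWIST1, 7407 counts over the 3 wt libraries stood against 10 in cis, a ratio of 690 with an exact 95% counting interval of 375 to 1440 (adjusted p = 7.28e-49). SNAI1 rose 5.34-fold, from 27, 28 and 29 counts to 122, 144 and 163 (adjusted p = 6.5e-19). SNAI2 was 2.12-fold lower (adjusted p = 5.46e-29) and ZEB1 1.26-fold lower (adjusted p = 7.56e-12). EPCAM was 4.82-fold lower on 47 against 9 counts (adjusted p = 6.36e-06). ZEB2, which was not tested there, had 33 counts against 1, a ratio of 30.7 (5.15 to 1250).

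All 8 members tested were called in this comparison, 1 up and 7 down, where 78.5% of the 14431 genes tested were called. With a change of at least 2-fold also required, 6 members remained, where 24.6% of all genes did. The median log2 change of the tested members was -1.07, and that of all genes -0.004. The call of FN1 (2.07-fold lower, adjusted p = 0.00948) rested on single libraries: without wt replicate 3 its adjusted p was 0.101, without cis replicate 1 it was 0.0712, and DESeq2 gave 0.121.

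The same comparison under carboplatin called 9 of 9 tested members, 1 up and 8 down, where 81.9% of all genes were called. A change of at least 2-fold was seen in 8 members, beside 31% of all genes. CDH2 was 19.4-fold lower, VIM 2.39-fold, FN1 4.58-fold and SNAI2 2.84-fold, and SNAI1 was 4.15-fold higher. ZEB2 passed the filter here, with 45 counts in wt carbo against 1 in cis carbo, a ratio of 40.3 (6.87 to 1630, adjusted p = 1.45e-08). TWIST1 stood at 7818 against 15 counts, a ratio of 466 (283 to 834). ZEB1 was 1.08-fold lower, with overlapping libraries (adjusted p = 0.0054), and lost its call without cis carbo replicate 3 (adjusted p = 0.0653), under total counts (0.178) and with DESeq2 (0.0733).

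Without serine/glycine, 8 of 9 tested members were called, where 81.1% of all genes were, and 7 of them changed at least 2-fold, beside 30.9% of all genes. The difference in CDH2 was far smaller than in complete medium, at 2.36-fold (log2 -1.24, SE 0.0341, adjusted p = 5.9e-18), with 103 ± 3.89 CPM in cis -SG. That of SNAI1 was larger, at 8.94-fold (adjusted p = 5.66e-14). ZEB2 had 53 counts against 6, a ratio of 9.06 (3.90 to 25.8, adjusted p = 6.11e-06), and TWIST1 9022 against 30, a ratio of 308 (216 to 457). FN1 missed the threshold (log2 -0.67, adjusted p = 0.0548) and passed it without wt -SG replicate 1 (0.0347) or cis -SG replicate 1 (0.0248).

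With deprivation and carboplatin together, 6 of 8 tested members were called, where 74.2% of all genes were, and all 6 changed at least 2-fold, beside 33.3% of all genes. CDH2 was 2.63-fold lower, VIM 2.47-fold, SNAI2 3.32-fold and EPCAM 2.67-fold, and SNAI1 was 2.82-fold higher. TWIST1 stood at 6855 counts against 21, a ratio of 381 (249 to 616). FN1 (log2 -0.41, adjusted p = 0.238) and ZEB1 (log2 0.10, adjusted p = 0.475) were not called, and total counts in place of TMM moved the median of all genes in this comparison to 0.15. EPCAM lost its call without cis -SG carbo replicates 2 and 3, whose shares of reads on no feature were the highest of the series (adjusted p = 0.053).

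**Figure D3:**
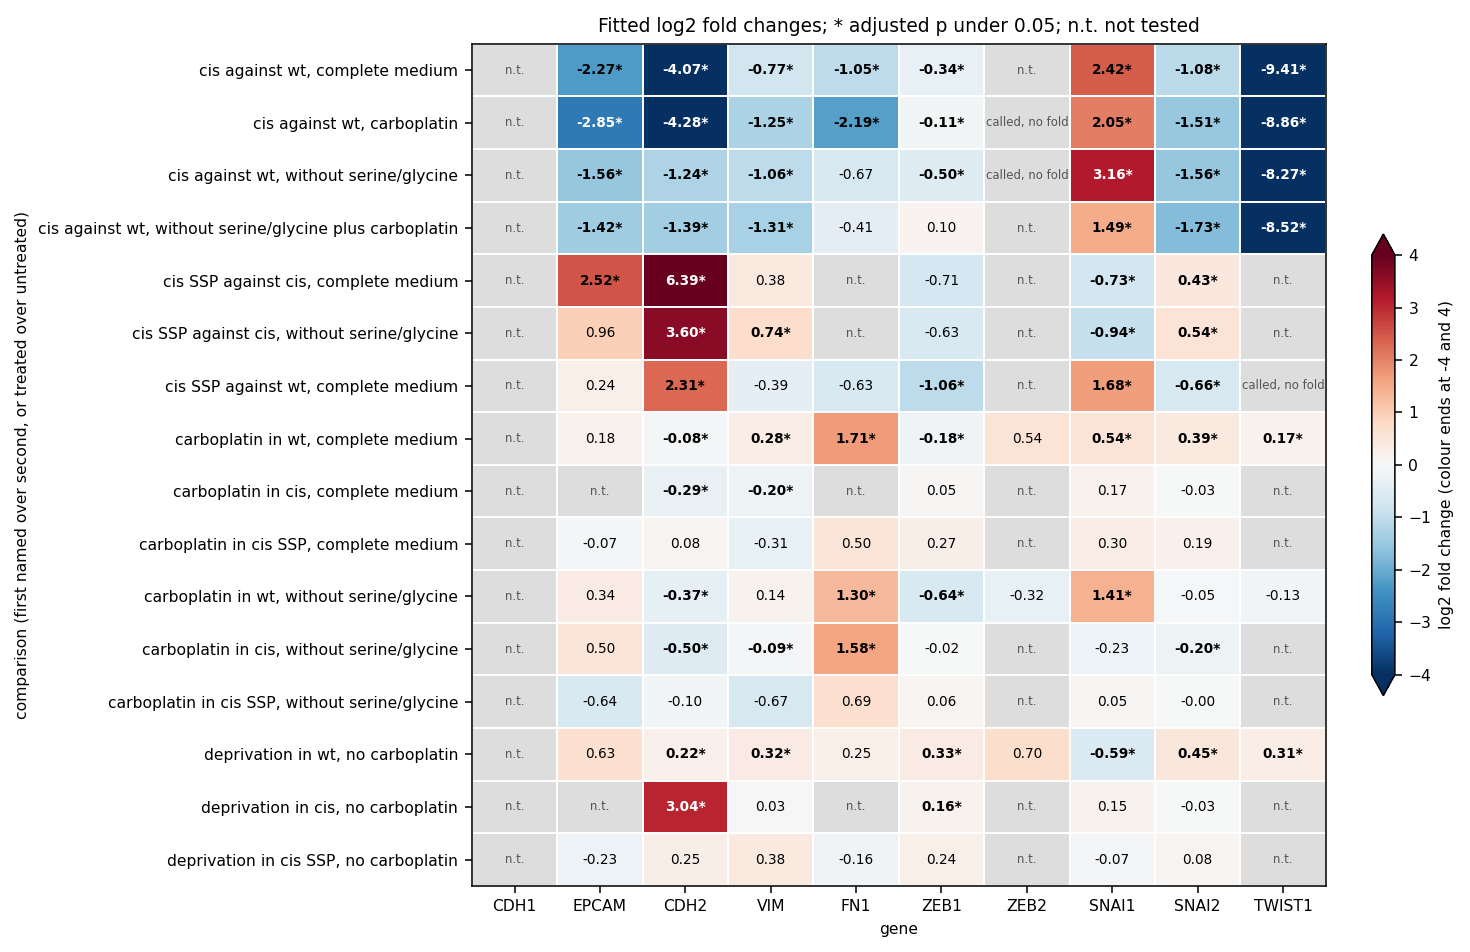
Fitted log2 fold changes of the 10 genes (columns) in 16 comparisons of 2 conditions (rows), with a star where the adjusted p was under 0.05, grey where a gene was not tested, and no fold where counts were too few. The colour scale ends at -4 and 4. CDH2 reads -4.07 between cis and wt cells, 6.39 between cis SSP and cis cells and 3.04 for deprivation in cis cells.

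The next comparison sets cis SSP cells beside the cis cells they grew from. In complete medium CDH2 was 84.0-fold higher in cis SSP cells (log2 6.39, SE 0.232, adjusted p = 3.39e-05), EPCAM 5.74-fold higher on 50 against 9 counts (adjusted p = 0.00677) and SNAI2 1.35-fold higher (adjusted p = 0.014). SNAI1 was 1.65-fold lower, at 4.98 ± 0.824 against 8.34 ± 0.745 CPM (adjusted p = 0.015). These were 4 of 6 tested members, where 29.1% of all genes were called, and 2 of them changed at least 2-fold, beside 13.1% of all genes. VIM (log2 0.38, adjusted p = 0.177) and ZEB1 (log2 -0.71, adjusted p = 0.0964, 0.0444 with DESeq2) were not called. TWIST1 had 5 counts against 10 and ZEB2 0 against 1, far below the 7407 and 33 of wt cells.

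Without library 25 the tests of this comparison changed, and the log2 changes of VIM and ZEB1 shrank from 0.38 and -0.71. CDH2 was then at log2 6.58 (adjusted p = 3.12e-46), SNAI1 at -0.84 (1.83e-06) and SNAI2 at 0.42 (1.3e-09), and VIM (0.16, adjusted p = 0.000101) and ZEB1 (-0.44, adjusted p = 2.69e-10) were called too, which made 6 members. With library 25 kept, leaving out any 1 cis library took SNAI1 (adjusted p from 0.0588 to 0.0832) and SNAI2 (0.0606 to 0.0896) over the threshold, as leaving out cis SSP replicate 3 did for SNAI2 (0.051).

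Without serine/glycine, 4 of 6 tested members were called between cis SSP and cis cells, where 44.8% of all genes were. CDH2 alone changed at least 2-fold, beside 21.4% of all genes: it stood at 27430, 13314 and 25177 counts in cis SSP -SG and at 2031, 1868 and 1883 in cis -SG, 12.1-fold apart (log2 3.60, SE 0.189, adjusted p = 8.62e-05). TWIST1, not tested, had 1 count in cis SSP -SG against 30 in cis -SG, a ratio of 27.4 (4.56 to 1120). VIM was 1.67-fold higher (adjusted p = 0.0153), SNAI2 1.45-fold higher (0.00346) and SNAI1 1.91-fold lower (0.00104). Without library 32 the log2 change of VIM was 0.54 (adjusted p = 6.56e-21), and ZEB1 was called at -0.31 (6.54e-09, against -0.63 and 0.179 with it). VIM lost its call when any 1 cis -SG library was left out (adjusted p 0.0588 to 0.0738), and EPCAM (log2 0.96, adjusted p = 0.0955) gained one without cis -SG replicate 2 (0.0425).

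Against wt cells in complete medium, cis SSP cells differed in 5 of 8 tested members, where 42.4% of all genes were called, and in 4 by at least 2-fold, beside 23.6% of all genes. CDH2 was 4.96-fold higher (adjusted p = 0.000155) and SNAI1 3.21-fold higher (0.000375). SNAI2 was 1.59-fold lower (0.00116) and ZEB1 2.08-fold lower (0.0202). TWIST1 had 7407 counts in wt against 5, a ratio of 1320 (567 to 4080, adjusted p = 1.8e-06), and ZEB2 was at least 9.83-fold lower, computed against 3 counts over the 3 cis SSP libraries, which held 0. EPCAM (log2 0.24, adjusted p = 0.56), VIM (-0.39, 0.153) and FN1 (-0.63, 0.499) were not called. Without library 25, VIM was called at -0.63 (adjusted p = 1.67e-48) and ZEB1 stood at -0.80. With it, ZEB1 lost its call when any 1 wt library was left out (adjusted p 0.0616 to 0.0644). CDH2 was thus above its wt level and TWIST1 far below it in the same cells.

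The next comparisons ask how each line responded to carboplatin. In wt cells in complete medium FN1 rose 3.28-fold, from 13, 12 and 21 counts to 51, 43 and 48 (adjusted p = 1.82e-12). SNAI1 rose 1.45-fold (adjusted p = 0.0175), SNAI2 1.31-fold (1.13e-41), VIM 1.22-fold (1.84e-58) and TWIST1 1.13-fold (4.09e-10). ZEB1 fell 1.13-fold (1.24e-07) and CDH2 1.06-fold, from 208 ± 3.4 to 194 ± 1.21 CPM (adjusted p = 0.000965). These were 7 of 9 tested members, 5 up and 2 down, where 77.8% of all genes were called. SNAI1 is uncertain here: its processed pseudogene SNAI1P1 had 112 to 133 counts in wt carbo and 1 to 6 in wt libraries, and SNAI1 itself 34 to 42 and 27 to 29. The call of SNAI1 was also lost without wt carbo replicate 2 (adjusted p = 0.0512) or 3 (0.09) and with DESeq2 (0.168).

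Without serine/glycine, carboplatin changed 4 of 9 tested members in wt cells, where 68.9% of all genes were called. FN1 rose 2.46-fold (adjusted p = 0.00189) and SNAI1 2.66-fold (0.000139), from 17 to 21 counts in wt -SG to 36 to 43 in wt -SG carbo, with SNAI1P1 at 1 to 3 and 83 to 103 counts. ZEB1 fell 1.56-fold (adjusted p = 0.00131) and CDH2 1.29-fold (0.000479). TWIST1 and SNAI2 were not called with all libraries (log2 -0.13 and -0.05) and were called as lower without wt -SG carbo replicate 2 (-0.19, adjusted p = 0.00235, and -0.11, adjusted p = 0.031).

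In cis cells in complete medium the same drug changed 2 of 5 tested members, where 20.1% of all genes were called: CDH2 fell from 12.7 ± 0.193 to 10.2 ± 0.48 CPM (log2 -0.29, adjusted p = 0.0183) and VIM from 1850 ± 103 to 1580 ± 75.5 CPM (log2 -0.20, adjusted p = 0.00423). The call of CDH2 was lost without cis carbo replicate 1 (adjusted p = 0.0531) or 2 (0.0523) and with DESeq2 (0.168). Without serine/glycine 4 of 7 were called, where 22.5% of all genes were. FN1 rose 2.99-fold, from 9 to 16 counts in cis -SG to 21, 28 and 46 in cis -SG carbo (adjusted p = 0.0057), and CDH2 fell 1.42-fold (1.01e-05), SNAI2 1.15-fold (0.00784) and VIM 1.07-fold (0.0252). FN1 lost its call without cis -SG carbo replicate 3 (adjusted p = 0.0515), and with replicates 2 and 3 both left out it stood at log2 0.97 (0.17). VIM lost its call without that replicate 3 (0.155) or without cis -SG replicate 2 (0.173) or 3 (0.132).

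In cis SSP cells no member was called for carboplatin with all libraries. In complete medium edgeR called 0 of 7 tested, where 2.72% of all genes were called, and without serine/glycine 0 of 7, where 1.47% were. At an unadjusted p under 0.05 there were 0 and 1, and DESeq2 called 0 and 1, the latter being VIM without serine/glycine (log2 -0.66, adjusted p = 0.0258). Without library 25, 4 members were called in complete medium: SNAI1 (log2 0.44), SNAI2 (0.22), VIM (-0.07) and CDH2 (-0.09, adjusted p = 0.000466, against 0.08 with the library). Without library 32, 3 were called without serine/glycine: CDH2 (-0.24), VIM (-0.44) and ZEB1 (-0.24, adjusted p = 0.000269, against 0.06).

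Deprivation of serine and glycine raised CDH2 in cis cells, and of the 9 comparisons of a medium or drug within a line none moved a tested member by a larger log2 change. It rose 8.25-fold, from 189, 234 and 228 to 2031, 1868 and 1883 counts, or from 12.7 ± 0.193 to 103 ± 3.89 CPM (log2 3.04, SE 0.0541, adjusted p = 3.68e-40). The new level lay below that of every wt library (168 to 244 CPM) and every cis SSP library (783 to 1400 CPM). ZEB1 rose 1.11-fold (adjusted p = 0.000327), and VIM, SNAI1 and SNAI2 were not called (log2 0.03, 0.15 and -0.03). TWIST1, not tested, had 30 counts against 10, a ratio of 2.73 (1.30 to 6.27), and EPCAM, also not tested, 25 against 9, a ratio of 2.53 (1.14 to 6.17). This made 2 of 5 tested members, where 75.0% of all genes were called. Without cis replicate 3, VIM was called as well (log2 0.06, adjusted p = 0.00941).

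In wt cells deprivation changed 6 of 9 tested members, each by less than 2-fold, where 49.2% of all genes were called. CDH2 (1.16-fold), VIM (1.25-fold), ZEB1 (1.25-fold), SNAI2 (1.37-fold) and TWIST1 (1.24-fold) rose, with adjusted p from 6.64e-11 for VIM to 1.32e-05 for TWIST1. SNAI1 fell 1.5-fold, from 27 to 29 counts to 17 to 21 (adjusted p = 0.0425), a call lost without any 1 of the 6 libraries (0.0579 to 0.126) and with DESeq2 (0.228). EPCAM (log2 0.63, adjusted p = 0.0509) and ZEB2 (0.70, 0.0724) were not called, and passed without wt -SG replicate 3 (0.0444) and wt -SG replicate 1 (0.0396), respectively.

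In cis SSP cells edgeR called 0 of 7 tested members for deprivation, where 0.0218% of all genes were called, with 0 at an unadjusted p under 0.05 and 0 by DESeq2. With libraries 25 and 32 both left out, CDH2 (log2 0.25, adjusted p = 1.86e-09), VIM (0.42, 8.75e-15) and ZEB1 (0.30, 2.12e-05) were called as higher without serine/glycine.

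The responses of the lines were then compared by interaction terms, each the response of the line named first minus that of the line named second. For deprivation, cis against wt cells, 6 of 9 tested members differed, where 54.0% of all genes did, and CDH2 differed most, by 2.84 on the log2 scale (SE 0.0558, adjusted p = 1.7e-31). The response of CDH2 in cis SSP cells was smaller than that in cis cells by 2.78 (SE 0.247, adjusted p = 9.22e-05), the only call among 7 members, where 17.1% of all genes were called. Without libraries 25 and 32 CDH2 stood at -2.80, and VIM (0.39, adjusted p = 2.2e-07), ZEB1 (0.14, 0.0445) and EPCAM (-1.57, 0.0468) were called too. A single fit over the 36 libraries called CDH2, EPCAM and TWIST1. For carboplatin, cis against wt cells, 5 of 9 members differed, where 57.6% of all genes did. SNAI2 (-0.41, SE 0.055, adjusted p = 3.32e-09) and VIM (-0.48, SE 0.0497, adjusted p = 1.39e-06) rose in wt cells, whereas in cis cells SNAI2 was not called (log2 -0.03) and VIM fell. For carboplatin, cis SSP against cis cells, edgeR called 0 of 7, where 0.506% of all genes were called, with 0 at an unadjusted p under 0.05 and 0 by DESeq2. SNAI2 passed there without library 25 (0.25, adjusted p = 0.0106).

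Other genes of the 2 states were followed in lists. Of 41 genes of the mesenchymal matrix and cytoskeleton, 37 were tested between cis and wt cells in complete medium, and 30 were lower and 4 higher in cis cells, with a median log2 change of -1.15 against -0.004 over all genes. The collagen gene COL1A2 fell from 370 to 0.0628 CPM, the matrix proteoglycan gene VCAN from 341 to 1.65 CPM and the matrix protein gene POSTN from 874 to 6.92 CPM, while COL3A1 rose from 1430 to 3590 CPM and FBN1 from 49.2 to 109 CPM. Of 32 epithelial junction and keratin genes, 17 were tested, with 8 higher and 6 lower. KRT18 rose from 0.614 to 17.3 CPM, and the desmosomal genes DSC2 and DSG2 fell from 6.04 to 0.0816 and from 7.15 to 0.112 CPM. Of all genes tested 78.5% were called, 5685 higher and 5637 lower. The mesenchymal list thus leaned to lower calls where the whole table did not. The epithelial genes were called both ways, and the median log2 change of those tested was 0.72, against -0.004 over all genes.

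**Figure D4:**
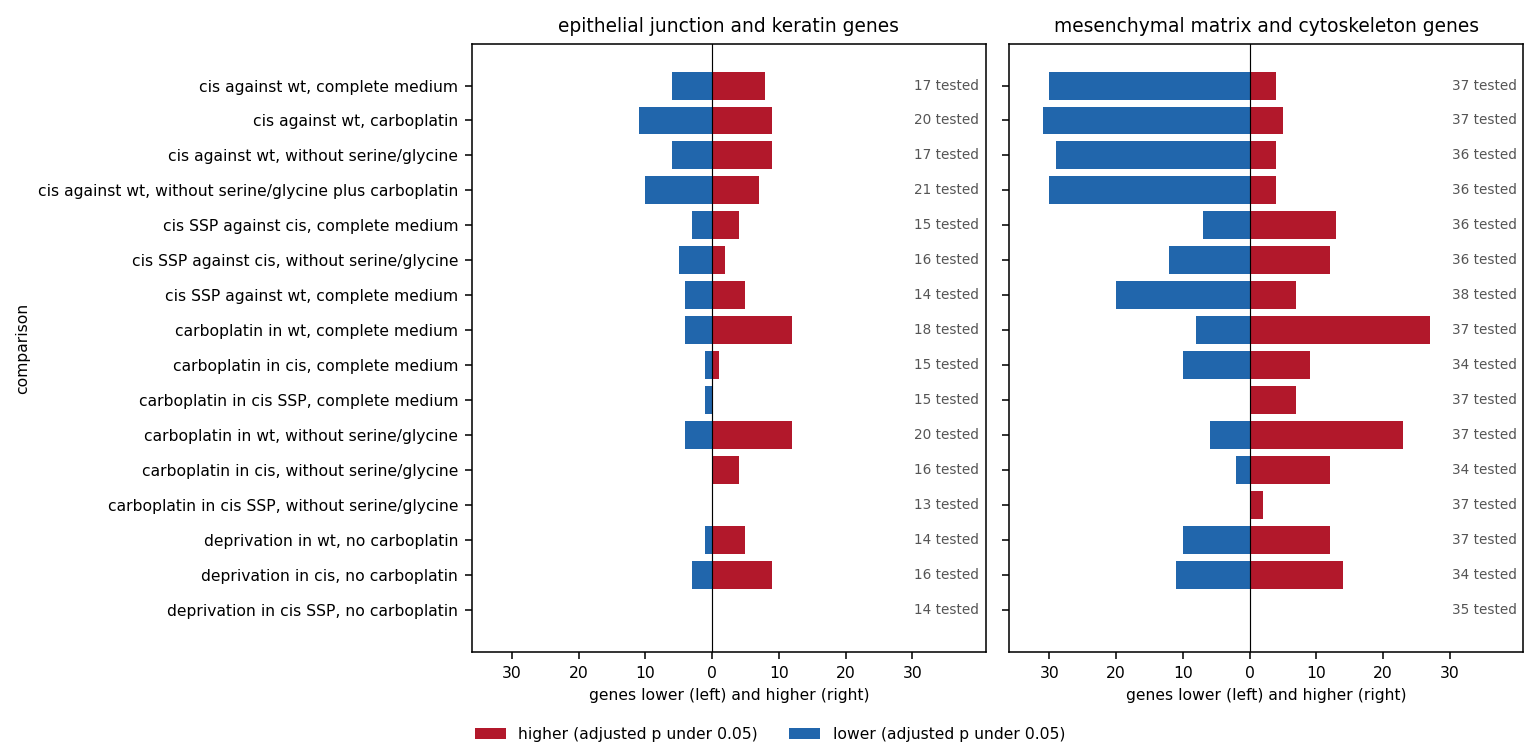
Numbers of genes called higher (red, right) or lower (blue, left) at an adjusted p under 0.05 in 16 comparisons, for 32 epithelial junction and keratin genes and 41 mesenchymal matrix and cytoskeleton genes, with the number tested at the right. Between cis and wt cells in complete medium 30 mesenchymal genes were lower and 4 higher, and carboplatin in wt cells left 27 higher and 8 lower.

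In cis SSP against cis cells in complete medium, 13 of 36 tested mesenchymal genes were higher and 7 lower (median log2 0.29, against 0.01 over all genes), where 29.1% of all genes were called, 2170 higher and 1820 lower. The proteoglycan gene DCN rose from 0.637 to 24.3 CPM, the growth factor receptor gene PDGFRA from 15.3 to 267 CPM and the matrix gene TNC from 1.47 to 29 CPM, whereas SPARC fell from 47.0 to 7.87 CPM. COL1A2 (0.317 CPM) and VCAN (0.468 CPM) stayed far under their wt levels in cis SSP cells. Both had few counts there, so their fitted log2 fold changes (-10.15 and -9.46) are imprecise. Among 15 epithelial genes tested, 4 were higher and 3 lower (median log2 -0.03), with TJP3 rising from 0.995 to 8.18 CPM.

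Carboplatin in wt cells raised 27 of 37 tested mesenchymal genes and lowered 8 (median log2 0.95, against -0.001 over all genes), and raised 12 of 18 epithelial genes and lowered 4 (median 0.83). Of all genes 77.8% were called, 5689 higher and 5707 lower. THBS1 went from 15.6 to 424 CPM and COL1A1 from 163 to 855 CPM. Among the epithelial genes KRT8 went from 0.346 to 5.56 CPM, and of the 14 epithelial regulators 4 of 5 tested rose, with GRHL3 from 1.47 to 22.4 CPM and ELF3 from 3.41 to 31.4 CPM. CDH1, not tested, had 6, 4 and 1 counts in wt carbo against 0, 1 and 0 in wt, a ratio of 11.6 (1.69 to 500). In cis cells the same drug raised 9 and lowered 10 of 34 mesenchymal genes (median log2 -0.002) and raised and lowered 1 each of 15 epithelial genes, where 20.1% of all genes were called. Deprivation in cis cells raised 9 and lowered 3 of 16 tested epithelial genes (median log2 0.34), and raised 4 and lowered 0 of 6 tested epithelial regulators. Of 34 mesenchymal genes it raised 14 and lowered 11 (median 0.05). Of all genes 75.0% were called there, 5309 higher and 5281 lower (median 0.01).

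The cadherin-catenin list holds the catenins that tie cadherins to actin, other cadherins and nectins. Between cis SSP and cis cells in complete medium 1 of 7 tested genes of the list was called (median log2 0.09), NECTIN2, from 49.7 to 84.0 CPM, where 29.1% of all genes were called. Between cis and wt cells 8 were tested, with 3 higher and 5 lower (median -0.22), where 78.5% of all genes were called: CTNND1, which encodes p120-catenin, rose from 163 to 398 CPM, and VCL, the vinculin gene, fell from 1390 to 378 CPM, while CTNNB1, for β-catenin, fell from 407 to 327 CPM.

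Of 20 other EMT transcription factors, 16 were tested between cis and wt cells in complete medium, with 7 higher and 8 lower (median log2 -0.055), where 78.5% of all genes were called, 5685 higher and 5637 lower. SOX9 fell from 32.4 CPM to 0 in every cis library in complete medium, and PRRX1 fell from 10.4 to 0.0776 CPM. ID1, ID2 and ID3, which encode helix-loop-helix proteins without a DNA-binding domain, rose from 29.5 to 105, from 39.8 to 139 and from 204 to 473 CPM. TCF4, a partner of TWIST proteins, fell from 32.1 CPM in cis to 0.232 CPM in cis SSP cells. Of the 12 genes in the list of corepressors and partners of ZEB and SNAI proteins, 4 were higher and 3 lower in cis than in wt cells (median log2 0.03), a smaller share than over all genes, with EZH2 from 69.4 to 89.1 CPM and LATS2 from 109 to 52.5 CPM.

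Genes whose means over the 12 conditions most resembled those of a member were ranked by Pearson's r on log2(CPM + 1) among 3977 protein-coding genes, as a description in which the points share lines and libraries. CDH2 was followed most closely by HOXB9 (r = 0.998), HOXB8 (0.991) and HOXB7 (0.967), neighbouring homeobox genes of 1 cluster. HOXB9 stood at 57.8 ± 1.59 CPM in wt, 4.58 ± 1.24 in cis, 26.1 ± 0.646 in cis -SG and 205 ± 2.72 in cis SSP, an order shared with CDH2. TWIST1 was followed by L3MBTL4 (1.0), SCN7A (0.999) and MUC15 (0.999), SNAI1 by ATP10A (0.99), GATA2 (0.984) and MDK (0.981), and ZEB1 by RASSF8 (0.985), SLC2A13 (0.967) and MBNL2 (0.964). For SNAI2 and VIM the gene nearest was C5orf15 (0.978 and 0.952). The gene nearest to EPCAM was NLGN4X (0.899) and that nearest to FN1 was GLS2 (0.959). On log2(CPM + 0.1) all 3 nearest genes were found again for CDH2 and VIM, and 2 of 3 for EPCAM, ZEB1 and SNAI2. For FN1 and SNAI1 it was 1 of 3, and for TWIST1 0 of 3. GLS2 was then not among the 3 nearest to FN1, and the gene nearest to SNAI2 was S1PR1 and that nearest to VIM was CASZ1.

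Among the members themselves, over the same 12 means, TWIST1 and ZEB2 (r = 0.986) and VIM and SNAI2 (0.925) were the closest pairs, and SNAI1 ran against SNAI2 (-0.918), TWIST1 (-0.891) and VIM (-0.886). The 3 lines form separate groups among these points.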

How the data were processed

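Total RNA of the 36 libraries was made into SENSE Total RNA libraries and read as 65-base single reads on a HiSeq2500. The authors aligned reads with STAR to GRCh37.p13 and deposited raw counts per gene over exons, made with HTSeq on GENCODE version 19. The strand setting is not given in the sources used here. Opposite-strand transcripts overlap exons of VIM, ZEB1 and TWIST1, and also of CDH1, CDH2, ZEB2 and SNAI2. A pseudogene on the same strand, AC009951.1, shares 2966 bases with exons of ZEB2 and had 0 counts in every library. Its effect on the counts of ZEB2 was not tested. Unassigned reads (3 rows that name no gene, reads on no feature being 4.208 to 17.904% of a library) were left out. Totals of 13074937 to 20441582 per library set the precision, and intervals on counts cover counting error only (exact, 95%).

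Groups were read from the sample descriptions. The numbers in the titles name libraries but give no replicate number, so replicates 1 to 3 are names only. Genes passing edgeR's filterByExpr were fitted with TMM factors and the quasi-likelihood test in each comparison (16 of 2 conditions, 4 interactions), and p-values were adjusted by Benjamini-Hochberg over all genes tested, with a threshold of 0.05. The fits were tested on simulated data. R 4.3.3, edgeR 4.0.16, DESeq2 1.42.0, Python 3.11.15, pandas 2.3.3, matplotlib 3.10.9 and scipy 1.17.1 were used. Names and lengths came from GENCODE version 44 on GRCh37. Ratios of genes with few counts were taken on the counts as they stand, also against 1 count. Where the lower group held 0 counts, 3 counts stood in for it and the ratio is a lower bound. No ratio was taken where no library of either group held over 3 counts.

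The 10 members and the gene lists were chosen with earlier results of these data known. All members are named. From each list at most 3 called genes per direction with the largest change and a mean of at least 50 counts are named, except for some that are not reported here, and for each member the 3 genes most correlated over condition means, among protein-coding genes with at least 1 CPM and an SD of at least 0.5. TWIST2 and SNAI1P1 fall outside this rule and were chosen as copies of members, and HOXB9 falls within it. Alternatives were DESeq2, median-of-ratios factors, total counts, no filter, a single fit, a length trend removed, each library left out, and libraries 25 and 32 left out. Leaving out libraries 25 and 32, and leaving out libraries 23 and 24 (cis -SG carbo replicates 2 and 3), were chosen after seeing the data.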

Additional observations from a re-analysis of the deposited data

Results flagged for a closer look

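In 12 cases the response of a member differed between lines by the interaction term of the quasi-likelihood test, which tests the difference itself. For carboplatin in complete medium, the log2 response of cis cells minus that of wt cells was -0.20 for CDH2 (SE 0.0792, edgeR adjusted p = 0.0441), -0.48 for VIM, -1.14 for FN1 (SE 0.496, edgeR adjusted p = 0.0451), 0.23 for ZEB1 and -0.41 for SNAI2. The difference of CDH2 lost its call in 6 of 12 fits without 1 library (adjusted p 0.052 to 0.131) and that of FN1 in 9 of 12 (0.053 to 0.226). For deprivation, cis minus wt was 2.84 for CDH2, -0.28 for VIM, -0.16 for ZEB1, 0.75 for SNAI1, -0.47 for SNAI2 and 1.16 for TWIST1. The value of TWIST1 rests on 10 and 30 counts in the cis conditions and lost its call in 4 of 12 fits without 1 library (0.0523 to 0.106). For deprivation, cis SSP minus cis was -2.78 for CDH2, and -2.80 without libraries 25 and 32.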

How the results depend on the processing

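Of 151 fitted values of members, 81 were called. Over 935 alternatives other than leaving out 1 library, 868 kept their direction and side of the threshold, 45 lost the call, 22 gained it and 0 reversed. Leaving out 1 library took the call from 14 values at least once and gave it to 19. Carboplatin in cis SSP cells reversed for CDH2 without cis SSP replicate 1 (log2 -0.093, from 0.08; -0.093 to 0.17 over the libraries left out) and, without serine/glycine, for ZEB1 without cis SSP -SG replicate 2 (-0.24, from 0.06; -0.24 to 0.25). The cause was not tested.

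Counts of called members that moved by over 1.5 times were as follows. A single fit over the 36 libraries gave 8 in cis SSP against cis without serine/glycine (from 4), 3 for carboplatin in wt (from 7), 0 for carboplatin in cis (from 2), 1 for carboplatin in cis SSP without serine/glycine (from 0), 2 for deprivation in wt (from 6), and for the interactions 2 (from 5) for carboplatin and 3 (from 6) for deprivation, cis against wt, and 3 (from 1) for deprivation, cis SSP against cis. DESeq2 gave 1 for carboplatin in cis, 1 for carboplatin in cis SSP without serine/glycine, and 3 for the carboplatin interaction of cis against wt, as did total counts (3) and no filter (3). Removing the length trend gave 4 for deprivation in cis (from 2) and 1 for carboplatin in cis SSP without serine/glycine. Without libraries 25 and 32 deprivation in cis SSP gave 3 and its interaction against cis 4, and without libraries 23 and 24 carboplatin in cis without serine/glycine gave 2 (from 4).

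Without 1 library the counts ranged from 2 to 6 in cis SSP against cis, 1 to 2 for carboplatin in cis, 0 to 4 in cis SSP, 2 to 4 in cis and 0 to 3 in cis SSP without serine/glycine, 3 to 5 for the carboplatin interaction of cis against wt and 0 to 1 for that of cis SSP against cis. Total counts moved the median of all genes by over 0.1 in cis against wt with deprivation and carboplatin (0.15) and in the deprivation interaction of cis SSP against cis (-0.11). No paired analysis was possible because the labels give no replicate number within a condition. Counts of CDH1, ZEB2, EPCAM and FN1 limit what could be detected for them.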
